A study of Mus musculus with 35 samples.

Results

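The 7 genes Kcnj10, Kcnj16, Aqp4, Slc4a4, Fxyd1, Atp1b1 and Atp1b2 encode potassium channels, a water channel, a bicarbonate transporter and sodium pump subunits. They were chosen by name for these roles, with earlier results of these data known, and all 7 were present among the 35976 gene symbols of the count tables. RNA-seq libraries were available from the medulla and the cervical spinal cord of SCA7 mice, which carry a knock-in expansion of the CAG repeat in one allele of the ataxin-7 gene, and of WT littermates on the C57Bl/6J background. Sampling took place at P8 (postnatal day 8), at 5 weeks and at 9 weeks, and the labels name no other allele or treatment. At 9 weeks there were 5 mice per genotype and both tissues came from the same mice. At 5 weeks there were 2 mice per genotype. At P8 there were 2 libraries per group, except that the cervical spinal cord had 1 WT library. The study chose several of these genes from the same libraries, so that their direction at 9 weeks is not independent evidence. The tissue was bulk, and fewer cells of a type and less RNA per cell cannot be told apart in any result below.

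Active neurons release potassium into the narrow space around them, and astrocytes clear it. Kcnj10 encodes Kir4.1, the main inward rectifier of astrocytes, which also occurs in oligodendrocytes. Kcnj16 encodes Kir5.1, which forms channels together with Kir4.1 that are sensitive to pH, a property studied in the chemosensory control of breathing in the brainstem. Aqp4 encodes aquaporin-4, the water channel of astrocyte endfeet, and Slc4a4 encodes NBCe1, which moves sodium and bicarbonate across the astrocyte membrane. The sodium pump takes potassium back into cells. Its beta subunits carry the pump to the membrane. Atp1b2 is the beta subunit typical of astrocytes, Atp1b1 is the one typical of neurons, and Fxyd1 encodes phospholemman, a small regulator of the pump.

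The upstream sequences of Kcnj10, Atp1b1 and Fxyd1 are shown because these genes stand for the patterns described below: a gene that was lower in SCA7 mice in both tissues, a pump gene for which no difference was detected, and a pump regulator with few counts in most libraries. On GRCm38, Kcnj10 spans chr1:172341210-172374085, Atp1b1 chr1:164437099-164458355, Fxyd1 chr7:31051678-31055873, Kcnj16 chr11:110968033-111027968, Atp1b2 chr11:69599728-69605978 and Slc4a4 chr5:88793858-89239656. Each sequence covers the 250 bases before a RefSeq start site on GRCm38.p6, 5′ to 3′ on the strand of the gene. For Kcnj10 and Atp1b1 that is the outer end of the gene, whereas the Fxyd1 window precedes a start site inside the span given. The Kcnj10 window is chr1:172340960-172341209 on the plus strand, Atp1b1 at chr1:164458356-164458605 on the minus strand and Fxyd1 at chr7:31054854-31055103 on the minus strand. Capitals mark matches on either strand to CCAAT, to GGGCGG (the GC box), to TTGGC (a nuclear factor I half-site), to ACAAAG (a SOX-type site) or to TATAAA, and a CCAAT match can overlap a TTGGC match.
Kcnj10: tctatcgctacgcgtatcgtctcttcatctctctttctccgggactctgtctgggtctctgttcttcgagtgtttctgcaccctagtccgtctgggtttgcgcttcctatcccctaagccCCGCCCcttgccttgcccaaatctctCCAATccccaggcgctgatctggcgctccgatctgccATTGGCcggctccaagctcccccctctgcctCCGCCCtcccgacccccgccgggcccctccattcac
Atp1b1: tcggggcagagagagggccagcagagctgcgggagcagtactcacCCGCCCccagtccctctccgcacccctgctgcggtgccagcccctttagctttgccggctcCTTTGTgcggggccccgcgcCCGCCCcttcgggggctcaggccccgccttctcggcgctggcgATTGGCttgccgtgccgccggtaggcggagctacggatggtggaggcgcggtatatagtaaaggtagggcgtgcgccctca
Fxyd1: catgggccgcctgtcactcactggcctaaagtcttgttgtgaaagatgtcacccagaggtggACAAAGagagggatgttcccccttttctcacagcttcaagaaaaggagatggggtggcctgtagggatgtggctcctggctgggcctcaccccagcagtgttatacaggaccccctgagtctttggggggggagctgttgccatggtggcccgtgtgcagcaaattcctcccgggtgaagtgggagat
The Kcnj10 and Atp1b1 windows each held 2 GGGCGG matches, a motif present in 32.7% of the 32851 promoter windows of that length. Both also held CCAAT, present in 33.8% of windows, and TTGGC, present in 41.5%. The Fxyd1 and Atp1b1 windows each held 1 ACAAAG match, a motif found in 16.5% of windows. TATAAA occurred in 12.4% of windows and in none of these 3. A match is a description of letters and not evidence of a bound site.

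Sequencing depth differed strongly between libraries. There were 15 deep libraries with 28969003 to 99353286 counts and 20 shallow libraries with 95917 to 396417 counts. Each 9-week group had 2 deep and 3 shallow libraries, whereas the 5-week medulla had deep libraries from WT mice only and shallow ones from SCA7 mice only. In a shallow library 3 counts corresponded to 8.98 to 29.9 CPM (counts scaled by TMM to a library of 1000000), and Kcnj16 and Fxyd1 rested on a handful of counts there. Mitochondrial genes took 2.89 to 12.1% of counts in deep libraries and 11.7 to 60.7% in shallow ones. The 12.1% was that of 9-week cervical spinal cord WT replicate 1, and the other deep libraries had at most 4.67%. The highest shares were 60.7% in medulla SCA7 replicate 2 and 36.1% in cervical spinal cord WT replicate 4, and values without them are given where they moved a result. Levels below are CPM scaled by TMM across all 35 libraries, and log2 fold changes with their standard errors (SE) come from edgeR fits of each comparison, with p adjusted over all genes tested.

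At 9 weeks, 6 of the 7 genes were lower in the SCA7 medulla, where 2.41% of all 19157 genes tested were called lower. The median log2 fold change of the 7 genes was −1.21, and that of all genes was 0.08. In the cervical spinal cord, 4 of the 7 were lower, against 3.54% of 19263 genes called lower, with a median of −0.95 beside −0.02 for all genes. Kcnj10, Aqp4, Fxyd1 and Atp1b2 passed in both tissues, Kcnj16 and Slc4a4 in the medulla, and Atp1b1 in neither. DESeq2 called 5 of the 7 in the medulla, without Fxyd1, among 71 genes it called in either direction. In the cervical spinal cord it called 4 of the 7, among 195 genes. In the medulla the count of 6 fell to 2 without WT replicate 2 or SCA7 replicate 5, and to 3 without WT replicate 5 or SCA7 replicate 4, which are the 4 deep libraries. The count of 4 in the cervical spinal cord fell to 1 when SCA7 replicate 5 was left out, and to 2 when replicate 2 or 3 of either genotype was left out.

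**Figure D1:**
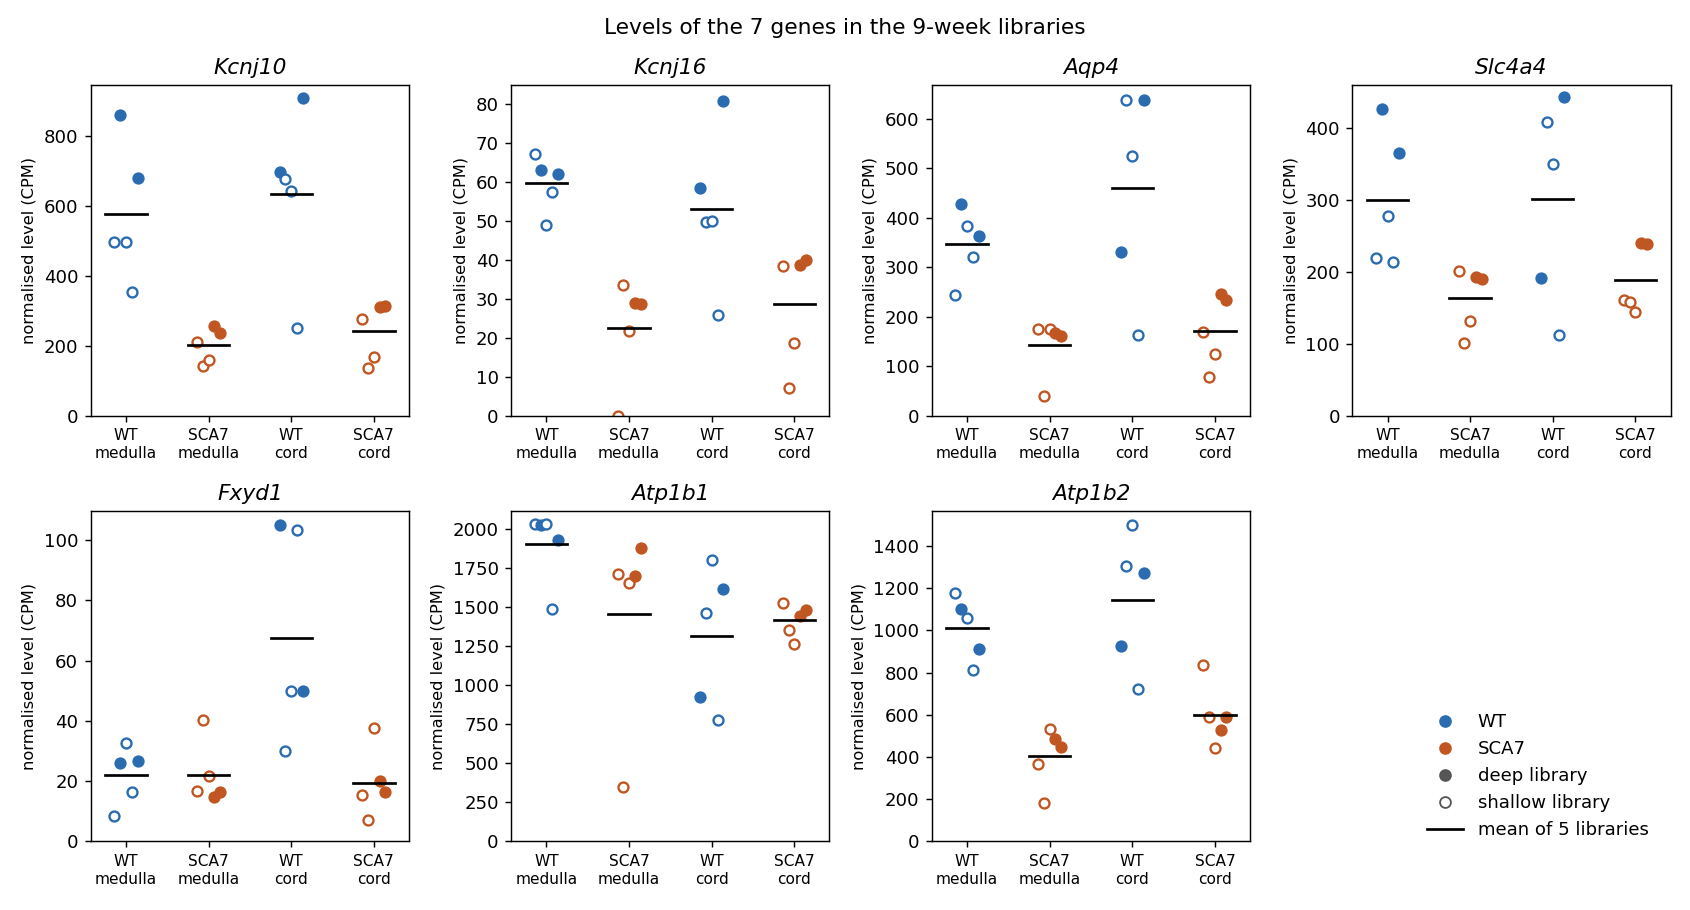
Normalised level (CPM) of each of the 7 genes in every 9-week library, by genotype and tissue, with filled circles for deep and open circles for shallow libraries and a bar at the mean of 5 mice. In the medulla the SCA7 libraries lie under every WT library for Kcnj10, Kcnj16, Aqp4, Slc4a4 and Atp1b2, whereas the groups overlap for Fxyd1 and Atp1b1.

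Kcnj10, the Kir4.1 channel, had the largest fold of the 7 genes in the medulla. Its level was 497, 861, 498, 354 and 679 CPM in the WT medullas (replicates 1 to 5) and 209, 141, 160.2, 258 and 236 CPM in the SCA7 medullas. Every SCA7 medulla was below every WT medulla, as held for 5 of the 7 genes and for 3.72% of the 2421 genes with at least 10 counts on average in shallow libraries. Kcnj16, which is 1 of the 5, and Fxyd1 had fewer counts and are outside this share and the like shares below. The mean level of Kcnj10 was 2.88-fold higher in WT, and the fitted log2 fold change was −1.48 ± 0.24 (SE, n = 5 per genotype, edgeR adjusted p = 0.00203). WT cervical spinal cords had 698, 677, 642, 249.5 and 908 CPM and SCA7 ones had 276, 137, 169, 310.5 and 314 CPM. Here WT replicate 4, the library with the high mitochondrial share, lay inside the SCA7 range, and the other 4 WT libraries lay above it. The fitted difference was −1.39 ± 0.29 (edgeR adjusted p = 0.0114). Kcnj10 passed the threshold in 23 of 24 tested alternatives in the medulla, and the cervical spinal cord call held in 22 of 24.

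Kcnj16, the Kir5.1 partner of Kir4.1, had the same direction and, per length, a lower level. The WT medullas had 67.3, 63.1, 49.0, 57.6 and 62.0 CPM and the SCA7 medullas 0, 33.6, 21.8, 29.0 and 28.6 CPM. The groups did not overlap, although the 0 of SCA7 replicate 1 came from a shallow library, in which a count of 0 allows up to 25.1 CPM. Its log2 fold change was −1.21 ± 0.32 (edgeR adjusted p = 0.0375), and it passed in 11 of 21 alternatives. Cervical spinal cord levels ranged in WT from 25.8 to 80.9 CPM and in SCA7 from 7.19 to 40.0 CPM. They overlapped through WT replicate 4 alone, and the difference of −0.84 was not past the threshold (edgeR adjusted p = 0.192).

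Aqp4, the endfoot water channel, was at 244, 427, 384, 321 and 362 CPM in the WT medullas and 176, 40.3, 175, 167 and 162 CPM in the SCA7 medullas. SCA7 replicate 2 stood below the other SCA7 libraries, which clustered tightly, and all 5 were below WT. The fitted log2 fold change was −1.24 ± 0.29 (edgeR adjusted p = 0.0190), and −1.08 without SCA7 replicate 2. The WT cervical spinal cords had 331, 637, 526, 163 and 638 CPM and the SCA7 ones 169, 79.0, 125, 246 and 233 CPM. WT replicate 4 again fell among the SCA7 values. There the log2 fold change was −1.40 ± 0.34 (edgeR adjusted p = 0.0262), a call that held in 13 of 24 alternatives.

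Slc4a4, the NBCe1 transporter, showed a smaller difference. The WT medullas had 219, 426, 278, 214 and 365 CPM and the SCA7 medullas 201, 100.7, 131, 193 and 190.3 CPM. The groups did not overlap, but the highest SCA7 library, at 201 CPM, and the lowest WT library, at 214 CPM, were close. Its log2 fold change was −0.86 ± 0.23 (edgeR adjusted p = 0.0415) and passed in 11 of 24 alternatives. Cervical spinal cord levels in WT ranged from 112 to 443 CPM and SCA7 from 144 to 239.7 CPM. All 5 SCA7 libraries lay within the WT range, and the difference of −0.66 was not past the threshold (edgeR adjusted p = 0.291).

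Among the pump genes, Atp1b2, the beta subunit typical of astrocytes, was lower in both tissues. The WT medullas had 1178, 1102, 1061, 814 and 910.3 CPM and the SCA7 medullas 369, 181, 532, 485 and 449.8 CPM. The lowest WT library was above the highest SCA7 library, and the mean was 2.51-fold higher in WT. The log2 fold change was −1.30 ± 0.25 (edgeR adjusted p = 0.00600), and −1.16 without SCA7 replicate 2. WT cervical spinal cords had 926, 1305, 1501, 723 and 1269.9 CPM and SCA7 ones 837, 589, 445, 529 and 588 CPM. The groups overlapped because WT replicate 4 was below SCA7 replicate 1. The difference of −0.95 ± 0.25 passed (edgeR adjusted p = 0.0364), in 12 of 24 alternatives.

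Atp1b1, the beta subunit typical of neurons, had the highest level per length of the 7 genes and no called difference. The WT medullas had 2028, 2028, 2033, 1489 and 1932 CPM and the SCA7 medullas 1709.5, 349, 1653, 1700.2 and 1876 CPM. Apart from SCA7 replicate 2, at 349 CPM, the SCA7 libraries lay inside the WT range. The lower end of that range was WT replicate 4 alone, at 1489 CPM, and the other WT libraries were above every SCA7 library. The fitted difference was −0.37 ± 0.33 (edgeR adjusted p = 0.619), and −0.14 without SCA7 replicate 2. Levels in the cervical spinal cord ran in WT from 774 to 1802 CPM and in SCA7 from 1265 to 1528 CPM, with a log2 fold change of 0.09 ± 0.25 (edgeR adjusted p = 0.928). The exons of Atp1b1 overlap those of Nme7 on the opposite strand over 575 bases, and how reads there were assigned is not given in the sources used here.

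Fxyd1, the phospholemman regulator, passed in both tissues on few counts. In the medulla the mean was 22.0 CPM in both genotypes. The WT medullas had 8.42, 25.9, 32.7, 16.4 and 26.8 CPM and the SCA7 medullas 16.8, 40.3, 21.8, 14.8 and 16.3 CPM, with wide overlap. The 2 deep WT libraries, at 25.9 and 26.8 CPM, were above the 2 deep SCA7 libraries, at 14.8 and 16.3 CPM, and the shallow libraries had only a few counts each. The fit gave −0.65 ± 0.16 (edgeR adjusted p = 0.0241), with −0.72 in the deep and 0.51 in the shallow libraries. The difference between these, −1.24 ± 0.70 (SE), did not pass the threshold in the edgeR fit. The call was lost in 10 of 21 alternatives, and the log2 fold change was −0.10 without SCA7 replicate 4. WT cervical spinal cords had 105, 29.9, 50.05, 103 and 49.9 CPM and SCA7 ones 15.4, 7.19, 37.6, 19.9 and 16.6 CPM. SCA7 replicate 3 was above WT replicate 2, and the other SCA7 libraries were below every WT library. The log2 fold change was −1.92 ± 0.39 (edgeR adjusted p = 0.00883) and passed in 19 of 23 alternatives.

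No gene of the 7 had fully separate groups in the cervical spinal cord, where 3.94% of 2411 genes had every SCA7 library under every WT library. Without WT replicate 4, the groups of Kcnj10, Kcnj16, Aqp4 and Atp1b2 were separate. The share of all genes separate without that library was not taken, so these 4 have no background to be read against. The 4 calls in the cervical spinal cord remained without that library, and the 6 calls in the medulla remained without SCA7 replicate 2.

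**Figure D2:**
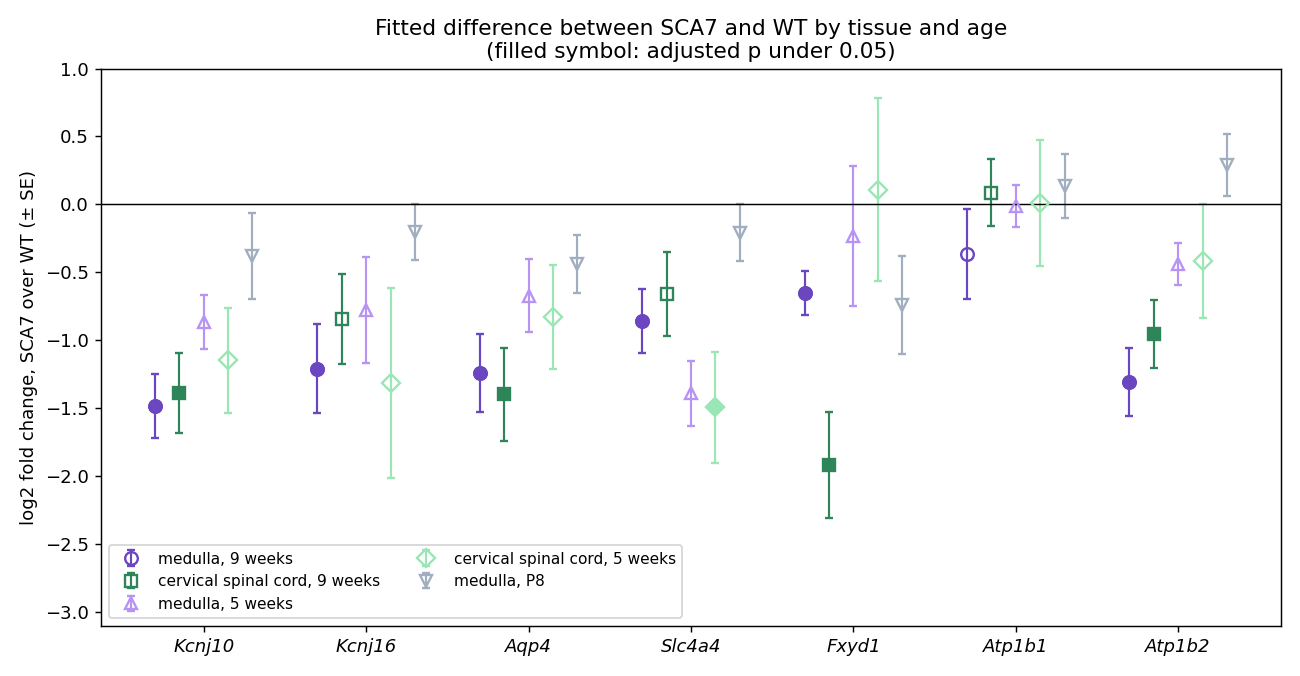
Fitted log2 fold change of SCA7 over WT with its SE for each gene by tissue and age; filled symbols passed an adjusted p of 0.05. The 9-week symbols of Kcnj10, Aqp4, Fxyd1 and Atp1b2 are filled in both tissues, those of Atp1b1 lie at −0.37 and 0.09, and the only filled 5-week symbol is Slc4a4 in the cervical spinal cord.

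The markers of several cell types moved in the same libraries. Of 20 astrocyte markers, 9 passed as lower in SCA7 in the medulla, with a median log2 fold change of −0.70, and 10 in the cervical spinal cord, with a median of −0.94. Their summed level was 9638 to 11412 CPM in the WT and 4610 to 6570 CPM in the SCA7 medullas, and 12287 to 18782 against 5416 to 7065 CPM in the cervical spinal cords. The genotypes did not overlap in either tissue. Of 15 oligodendrocyte markers, 10 and 14 were lower. None of 18 neuronal markers passed by edgeR, with 2 and 1 of them at an unadjusted p below 0.05 in medulla and cord, and their sums overlapped, at 10666 to 13444 against 9026 to 11749 CPM in the medulla and 7907 to 16834 against 10081 to 12757 CPM in the cervical spinal cord. All 10 meningeal markers were lower in the SCA7 cervical spinal cord, with a summed level of 129 to 1351 CPM in WT and 38.4 to 79.5 CPM in SCA7. Schwann cell and muscle markers spanned 19.9 to 527 CPM in WT and 8.99 to 93.4 CPM in SCA7 there. The WT cervical spinal cords with the highest Fxyd1, replicates 1 and 4, had meningeal sums of 173 and 1351 CPM and Schwann cell and muscle sums of 527 and 198 CPM, the highest pair of the latter. In the medulla no meningeal marker was lower and 1 of 10 was higher, and 4 of 8 Schwann cell and muscle markers were higher in SCA7. The Schwann cell and muscle sums overlapped there, at 5.85 to 269 CPM in WT (mean 62.9) and 9.65 to 58.7 CPM in SCA7 (mean 34.6). Endothelial markers had 1 of 11 lower in each tissue, microglial ones 3 and 1 of 10, and choroid plexus and ependymal ones 2 of 11 in the medulla and by edgeR none of 10 in the cord, where 2 had an unadjusted p below 0.05. In the cord 9 endothelial and 8 microglial markers had an unadjusted edgeR p below 0.05, with median log2 fold changes of −1.34 and −1.30. In the medulla these were 2 and 3 markers, with medians of −0.28 and −0.55. Microglial sums did not overlap in the medulla, at 219 to 280 CPM in WT and 114 to 188 CPM in SCA7. They overlapped in the cord, at 169 to 491 against 93.9 to 230 CPM. The part of these markers in the results for the 7 genes was not tested.

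To compare the genes without library scaling, the ratio of 2 counts was taken within each 9-week library. None of the ratios described here passed an adjusted p of 0.05 in exact two-sided permutation tests, adjusted over the 20 ratios tested. With 5 against 5 the smallest p is 0.00794. Atp1b2 over Atp1b1, the glial over the neuronal beta subunit, had a log2 ratio of 0.00, −0.17, −0.26, −0.10 and −0.35 in the WT cervical spinal cords and of −0.87, −1.19, −1.50, −1.45 and −1.33 in the SCA7 ones. The groups did not overlap, and the difference was −1.09 (exact permutation p = 0.00794, adjusted p = 0.0529), lower in 5 of 5 SCA7 mice. In the medulla it was −0.78, −0.88, −0.93, −0.87 and −1.09 in WT and −2.20, −0.93, −1.63, −1.81 and −2.06 in SCA7. SCA7 replicate 2 lay within the WT values, and the difference was −0.82 (exact permutation p = 0.0238, adjusted p = 0.119), or −1.02 without it.

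Atp1b1 over the summed neuronal markers was 0.39 higher in the SCA7 cervical spinal cord (exact permutation p = 0.00794, adjusted p = 0.0529). WT replicate 1, a deep library, was the lowest at −3.94. The difference was 0.66 in the deep and 0.21 in the shallow libraries, and 0.25 to 0.45 without each library in turn. The same ratio differed by −0.32 in the medulla (exact permutation p = 0.881, adjusted p = 0.897), and by 0.089 without SCA7 replicate 2. Set against the summed astrocyte markers, the 6 glial members gave 12 ratios, of which 1 had an unadjusted p below 0.05, namely Fxyd1 in the medulla, 0.88 higher in SCA7 (exact permutation p = 0.0476, adjusted p = 0.159). That difference was 0.23 in the deep and 1.32 in the shallow libraries, where Fxyd1 had 1 to 6 counts. Atp1b2 over the astrocyte markers differed by −0.47 in the medulla (exact permutation p = 0.222, adjusted p = 0.444) and by 0.12 in the cervical spinal cord (exact permutation p = 0.683, adjusted p = 0.853). Without SCA7 replicate 2 the medulla value was −0.15, and that of Aqp4 over the astrocyte markers went from −0.47 to −0.015. Without WT replicate 4 the cervical spinal cord differences went from −0.31 to −0.61 for Kcnj10 and from −0.33 to −0.65 for Aqp4 over the astrocyte markers.

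**Figure D3:**
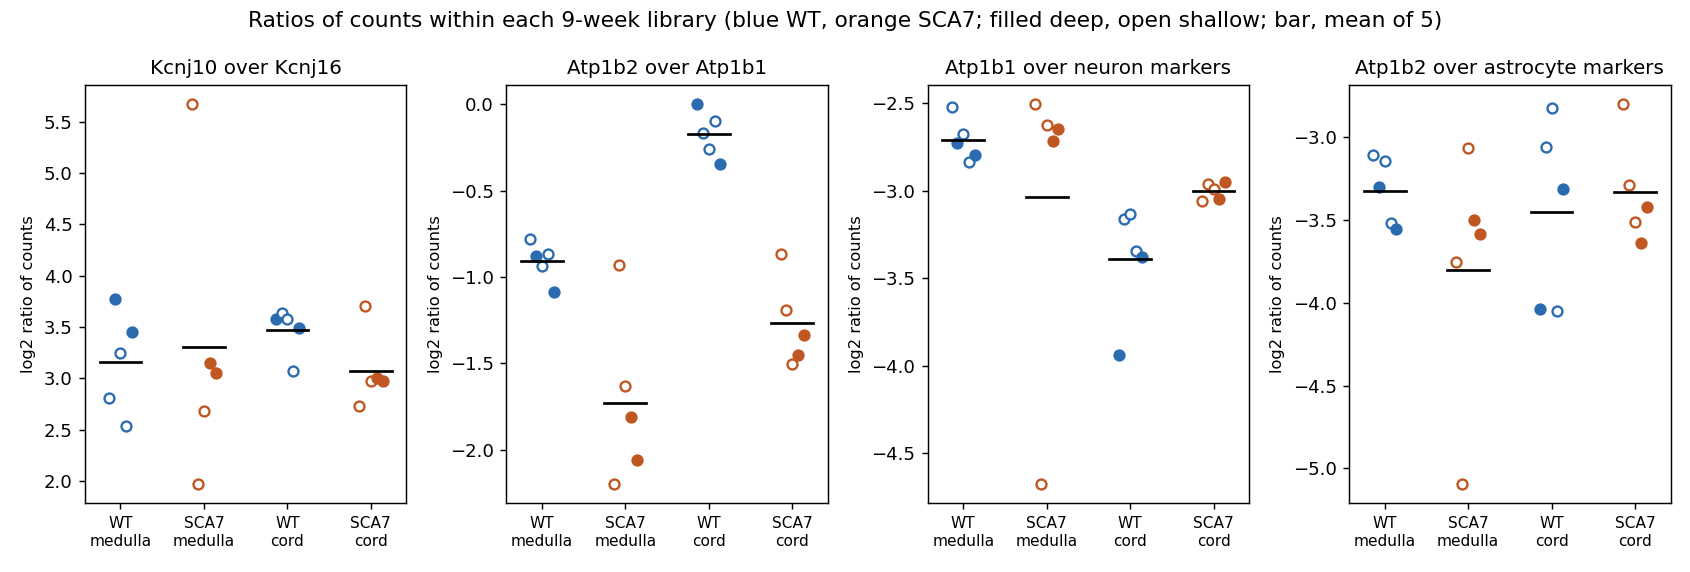
Log2 ratio of counts within each 9-week library for 4 of the ratios, by genotype and tissue, with filled circles for deep and open circles for shallow libraries and a bar at the mean of 5 mice. Atp1b2 over Atp1b1 lies between −0.35 and 0.00 in the WT and between −1.50 and −0.87 in the SCA7 cervical spinal cords, and Atp1b2 over the astrocyte markers overlaps between genotypes in both tissues.

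Some of the other pathway genes passed the threshold at 9 weeks. As a background, edgeR called 6.97% of all 19157 medulla genes in either direction, and 5.06% of all 19263 cord genes. The lists below were not tested against these shares. Fxyd3, a pump regulator of the FXYD family, was lower in the cervical spinal cord, at −2.90 ± 0.37 (edgeR adjusted p = 4.80e-04). Of 12 other potassium channels, Kcnk13, a 2-pore channel, was lower in both tissues, at −2.48 ± 0.21 (edgeR adjusted p = 2.82e-05) and −2.29 ± 0.49 (edgeR adjusted p = 0.0126).

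Gja1, the connexin 43 of astrocyte gap junctions, was lower in both tissues among 16 endfoot and junction genes (−1.41 ± 0.24, edgeR adjusted p = 0.00309, and −1.08 ± 0.25, edgeR adjusted p = 0.0171). The others of that list past the threshold were Ezr, ezrin, which was higher in the medulla at 0.86 ± 0.21 (edgeR adjusted p = 0.0253), and Gjb2, connexin 26, and Aqp1, aquaporin-1, which were lower in the cord at −2.39 ± 0.57 (edgeR adjusted p = 0.0224) and −3.67 ± 0.87 (edgeR adjusted p = 0.0213). Of 18 pH and bicarbonate genes, Car2, a carbonic anhydrase abundant in oligodendrocytes, was lower in both tissues (−1.63 ± 0.34, edgeR adjusted p = 0.0111, and −1.69 ± 0.25, edgeR adjusted p = 0.00135), and Car8 was lower in the medulla (−2.52 ± 0.58, edgeR adjusted p = 0.0170). Of 11 cation-chloride cotransport genes, Wnk1, a kinase that regulates these cotransporters, was lower in the cord (−1.14 ± 0.20, edgeR adjusted p = 0.00409). None of the 11 passed in the medulla by edgeR, where 1 had an unadjusted p below 0.05. Fxyd3, Kcnk13, Ezr, Gjb2, Aqp1 and Car8 had fewer than 10 counts on average in shallow libraries and were named after their values were seen.

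Per kilobase of exon, the order of levels in the 9-week WT medulla was Atp1b1 at 617, Atp1b2 at 248, Kcnj10 at 107, Aqp4 at 55.8, Slc4a4 at 27.8, Kcnj16 at 15.2 and Fxyd1 at 10.1 CPM per kb. In the SCA7 medulla Atp1b2 was at 98.7, Kcnj10 at 37.2 and Aqp4 at 23.1 CPM per kb. Fxyd1 and Kcnj16 were at 10.1 and 5.74 CPM per kb there, on 0 to 6 counts in the shallow libraries, and their order is not read.

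Between tissues at 9 weeks, the SCA7 difference did not pass the threshold for any of the 7 genes by edgeR, against 2.78% of 19838 genes, and 1 of the 7 had an unadjusted p below 0.05. This was Fxyd1, whose SCA7 difference in the cord against that in the medulla was −0.79 ± 0.24 (edgeR adjusted p = 0.0981, and 0.0364 without WT replicate 2). It comes from a joint fit of all 9-week libraries with mouse as a block. It therefore need not equal the difference between the fold changes fitted above for each tissue. The same term of that fit was 0.12 for Kcnj10, 0.19 for Kcnj16, −0.05 for Aqp4, 0.26 for Slc4a4, 0.67 for Atp1b1 and 0.40 for Atp1b2. In WT mice Fxyd1 was 1.27 ± 0.35 higher on the log2 scale in the cervical spinal cord than in the medulla (edgeR adjusted p = 0.0124), the only one of the 7 called higher, against 2.31% of genes. The call was lost without WT replicate 1, 4 or 5 (adjusted p = 0.0876, 0.110 and 0.420). The other 6 genes ranged in WT from −0.57 for Atp1b1 to 0.35 for Aqp4 and did not pass. In SCA7 mice Kcnj16 was 0.42 ± 0.12 higher (edgeR adjusted p = 0.00546) and Aqp4 0.43 ± 0.14 higher (edgeR adjusted p = 0.0260) in the cervical spinal cord, where 3.09% of genes were called higher. The other 5 ranged from 0.06 for Atp1b1 to 0.49 for Atp1b2. Both calls were lost without SCA7 replicate 4 or 5, while without SCA7 replicate 2 the count rose from 2 to 6 and Atp1b1 went from 0.06 to −0.28 (edgeR adjusted p = 0.00605).

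At 5 weeks, in the medulla, none of the 7 genes passed by edgeR, against 0.0597% of 18432 genes called lower, while 4 had an unadjusted p below 0.05. DESeq2 called 1 of the 7, among 524 genes it called in either direction. Slc4a4 was at 382 and 338 CPM in WT and 141 and 110.4 CPM in SCA7, the furthest apart of the 7 (−1.39 ± 0.24, edgeR adjusted p = 0.0576, and 0.0203 and 0.00742 without WT replicate 1 and 2). Kcnj10 was at 561 and 661 CPM in WT and 273 and 339.7 CPM in SCA7 (−0.86 ± 0.20, edgeR adjusted p = 0.159). The WT libraries were above the SCA7 libraries for both genes, as they were for 37.5% of the 2136 genes with at least 10 counts on average in the shallow libraries of this comparison. Aqp4 was at 244 and 345 CPM in WT and 176 and 161 CPM in SCA7 (−0.67 ± 0.27, edgeR adjusted p = 0.433), and Atp1b2 at 886 and 963 against 608 and 637 CPM (−0.44 ± 0.16, edgeR adjusted p = 0.360). Kcnj16 was at 58.2 and 55.4 against 26.4 and 34.0 CPM (−0.78 ± 0.39, edgeR adjusted p = 0.610). The groups of these 3 genes did not overlap either, but Kcnj16 was not among the 2136 genes. Fxyd1, at 21.7 and 22.8 against 17.6 and 16.99 CPM, and Atp1b1, at 1633 and 1857 against 1427 and 1741 CPM, differed by −0.23 ± 0.51 (edgeR adjusted p = 0.906) and −0.01 ± 0.15 (edgeR adjusted p = 0.976). Astrocyte marker sums were 9816 to 11147 CPM in WT and 5333 to 5505 CPM in SCA7. The median log2 fold change of all genes was −0.54 in this comparison, and genotype and depth cannot be told apart in it.

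In the 5-week cervical spinal cord, Slc4a4 alone of the 7 was lower, against 0.0699% of 17162 genes, and 3 of the 7 had an unadjusted p below 0.05. It was at 256 and 396 CPM in WT and 60.5 and 148 CPM in SCA7 (−1.49 ± 0.41, edgeR adjusted p = 0.0356). The call was lost without WT replicate 2 or either SCA7 library, and DESeq2 did not make it. Kcnj10 was at 672 and 939 CPM in WT and 233 and 425 CPM in SCA7 (−1.15 ± 0.39, edgeR adjusted p = 0.289, and 0.00571 without WT replicate 1). WT replicate 1 was the only shallow WT library beside 2 shallow SCA7 libraries, so that without it genotype and depth cannot be told apart. Aqp4 was at 597 and 602 CPM in WT and 294 and 319 CPM in SCA7, and Atp1b2 at 1203 and 1305 against 674 and 1033 CPM. Both were lower in each SCA7 library without passing (−0.83 ± 0.38 and −0.42 ± 0.42, edgeR adjusted p = 0.941 for each). Kcnj16 was at 37.9 and 65.0 against 8.64 and 29.5 CPM, and Fxyd1 at 18.9 and 41.0 against 25.9 and 41.3 CPM. The genotypes overlapped for Fxyd1 and not for the others, where 22.1% of 2461 genes had every SCA7 library under every WT library and the median log2 fold change of all genes was −0.29. Kcnj16 and Fxyd1 were not among the 2461 genes. Atp1b1 was at 1581 and 1670.5 CPM in WT and 1504 and 1476 CPM in SCA7 (0.01 ± 0.47, edgeR adjusted p = 0.997).

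At P8 no member passed in the medulla by edgeR, where 0% of 20564 genes were called, 559 genes and none of the 7 had an unadjusted p below 0.05, and DESeq2 called none. Aqp4 was at 1357 and 1253 CPM in WT and 939 and 940.4 CPM in SCA7 (−0.44 ± 0.21). Slc4a4 was at 558 and 479 against 459 and 407 CPM (−0.21 ± 0.21), and Kcnj16 at 73.8 and 67.2 against 63.4 and 38.8 CPM (−0.20 ± 0.21). The groups of these 3 genes did not overlap, which held for 14.8% of the 2004 genes with at least 10 counts in the shallow library, Kcnj16 not among them. Kcnj10 was at 374 and 279 against 296 and 155 CPM (−0.38 ± 0.32), and Fxyd1 at 14.9 and 24.7 against 11.2 and 19.4 CPM (−0.74 ± 0.36). Atp1b1 was at 982 and 783 against 1007 and 873 CPM (0.13 ± 0.23), and Atp1b2 at 719 and 573 against 733 and 814 CPM (0.29 ± 0.23). For Kcnj10, Fxyd1 and Atp1b1 the genotypes overlapped, and for Atp1b2 both SCA7 libraries were above WT. In the P8 cervical spinal cord the single WT library had 252 CPM of Kcnj10, and the SCA7 libraries had 149.7 and 137 CPM. Aqp4 was at 599.9 CPM in the WT library and at 563 and 605 CPM in the SCA7 ones, and Atp1b2 at 647 against 772 and 468 CPM. Kcnj16 was at 46.02 against 44.9 and 32.3 CPM, Slc4a4 at 386 against 365 and 282 CPM, Fxyd1 at 5.89 against 2.99 and 16.1 CPM and Atp1b1 at 1152 against 1036 and 911 CPM. With 1 WT library these differences have no replicate check and were not tested.

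**Figure D4:**
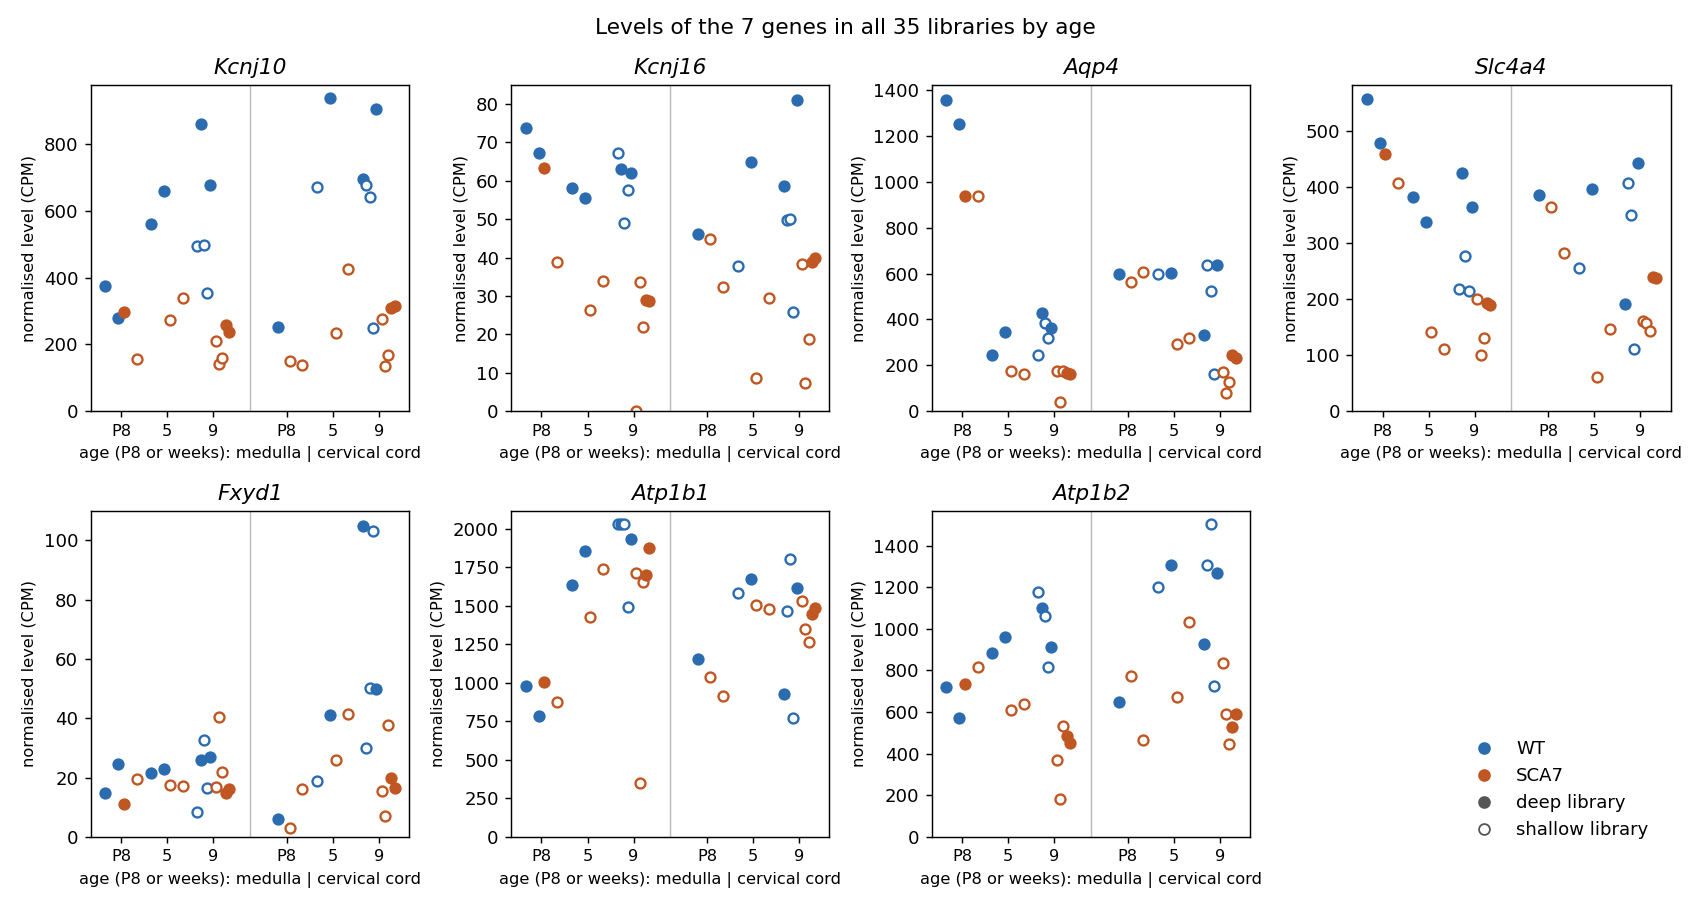
Normalised level (CPM) of each of the 7 genes in all 35 libraries against age (P8, 5 and 9 weeks), with the medulla in the left and the cervical spinal cord in the right part of each panel, blue for WT and orange for SCA7, filled for deep and open for shallow libraries. In the medulla Aqp4 falls from 1357 and 1253 CPM at P8 to 244 and 345 CPM at 5 weeks in WT, and Atp1b1 rises from 982 and 783 to 1633 and 1857 CPM.

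In the WT medulla 2 of the 7 genes passed the threshold between P8 and 5 weeks, against 23.2% of 20932 genes. Aqp4 fell by 2.16 ± 0.23 on the log2 scale (edgeR adjusted p = 1.85e-04), and Atp1b1 was 0.97 ± 0.22 higher at 5 weeks (edgeR adjusted p = 0.00958). Kcnj10 was 0.89 ± 0.30 higher without passing (edgeR adjusted p = 0.0584), and in the deep libraries alone 5 genes passed. In all libraries Kcnj16 (−0.32), Slc4a4 (−0.54), Fxyd1 (0.17) and Atp1b2 (0.51) did not pass. Between 5 and 9 weeks none of the 7 passed by edgeR, against 0.0382% of genes, and none had an unadjusted p below 0.05. None passed for a genotype difference that changed with age by edgeR, in the medulla from 5 to 9 weeks (0% of 21133 genes called, 1 of the 7 with an unadjusted p below 0.05), in the cervical spinal cord (0% of 19880, 1 of the 7) or in the medulla from P8 to 9 weeks (0.0237% of genes, 3 of the 7). The last of these was furthest from 0 for Atp1b2 (−1.58 ± 0.38, edgeR adjusted p = 0.162). Over all genes the median of these contrasts was 0.76, 0.52 and 0.14, in the same order. All SCA7 libraries of 5 weeks were shallow, and WT had 2 deep medullas, 1 deep cord and 1 shallow cord. At P8 the medulla had 2 deep WT, 1 deep SCA7 and 1 shallow SCA7 library. Depth thus enters these contrasts, and the lack of calls does not show that the genotype difference stayed the same with age.

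Across the 20 libraries of 9 weeks, the levels of some members varied together. The Spearman rho was 0.91 between Kcnj10 and Kcnj16, 0.91 between Kcnj10 and Aqp4 and 0.82 between Kcnj10 and Atp1b2, whereas it was 0.38 between Kcnj10 and Atp1b1 and 0.35 between Kcnj10 and Fxyd1. Fxyd1 had rho from 0.09 to 0.35 with the other glial members. Over the 8 deep libraries alone rho was 0.02 between Kcnj10 and Atp1b1 and 0.83 between Kcnj10 and Fxyd1. The genes most like Kcnj10 were Fnbp1, Tspan2 and Ugt8a, with rho from 0.94 to 0.95, and those most like Atp1b1 were Ndrg4, Adarb1 and Plekha6, with rho from 0.85 to 0.87. Those most like Atp1b2 were Cldn11, Fa2h and Cx3cl1 (0.90 to 0.93), and those most like Slc4a4 were Acsl6, Sparcl1 and Aqp4 (0.90 to 0.96). For Aqp4 they were Sparcl1, Kcnj10 and Clasp2 (0.90 to 0.91), for Kcnj16 they were Kcnj10, Paqr8 and Slc1a2 (0.87 to 0.91), and for Fxyd1 Glra1, Pfn1 and Oxsr1 (0.77 to 0.79). These are descriptions over libraries that share genotype, depth and tissue.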

How the data were processed

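RNA was extracted from flash-frozen tissue. The deposited files hold raw read counts per gene for 35 libraries, which the authors made by mapping reads to GRCm38v73 (mm10 in the processing notes) and keeping reads with a single location. The aligner, counter and strand setting are not given in the sources used here. The study used DESeq2. A gene entered a fit when any of its libraries reached 10 counts, and was tested by edgeR 4.0.16 (quasi-likelihood, TMM) in R 4.3.3 at a Benjamini-Hochberg adjusted p of 0.05. Tissues of the same mice were compared with mouse as a block. The alternatives included DESeq2 1.42.0 and limma 3.58.1. Ratios were tested by exact permutation with a pseudocount of 0.5. The tests were checked on simulated data, where directions were recovered and calls of unchanged genes in the WT tissue comparison ran above the nominal rate, so a call there is less certain. All 7 members were reported in every genotype comparison, by value or range in the others, and other list genes where called with at least 10 counts on average in shallow libraries, except some that are not reported here. Called list genes with fewer counts were named after their values were seen. The members and lists were chosen with earlier results of these data known. P-values of the genotype and age comparisons measure the spread between libraries of different mice, which includes differences in depth and counting error. In the tissue comparisons, with mouse as a block, they measure the spread of the tissue difference among mice. CPM floors cover counting error only.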

Additional observations from a re-analysis of the deposited data

Results flagged for a closer look

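In 68 groups of 5 values checked with Dixon's test, 9 values stood apart from the rest of their group, and chance flags about 1 group in 20. Medulla SCA7 replicate 2 held 5 of these: 40.3 CPM of Aqp4 and 349 CPM of Atp1b1, below the other SCA7 medullas, 40.3 CPM of Fxyd1, above them, and log2 ratios of −7.18 for Aqp4 over the astrocyte markers and −4.68 for Atp1b1 over the neuronal markers. Medulla WT replicate 4 had 1489 CPM of Atp1b1, below the other WT medullas. The log2 ratio of Kcnj16 over the astrocyte markers was −10.23 in medulla SCA7 replicate 1, where Kcnj16 had 0 counts. Kcnj10 over Kcnj16 was 3.08 in cervical spinal cord WT replicate 4, below its group, and 3.70 in cervical spinal cord SCA7 replicate 2, above its group.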

How the results depend on the processing

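Every called 9-week genotype difference of the 7 genes kept its direction in each alternative run except Fxyd1 in the medulla, at 0.51 in the shallow libraries of a genotype by depth fit, chosen after seeing the data, as were leaving out the mitochondrial genes and leaving out the 2 libraries that stand apart. The causes of the changes below were not tested. A gene that a filter takes out is not tested and cannot be called. With at least 10 counts in every library this held in the 9-week medulla for Kcnj16, Aqp4 and Fxyd1. In the 9-week cervical spinal cord it held for Fxyd1, and in the 5-week one for Slc4a4. In the tissue comparisons it held for Fxyd1 in WT and for Kcnj16 and Aqp4 in SCA7. Kcnj16 and Fxyd1 were also untested in the 9-week medulla with shallow libraries only or with thinning. The count of 6 in the 9-week medulla was 1 with library totals or bias-adjusted quasi-likelihood, 2 with at least 10 counts in every library or with deep libraries thinned, 3 without a filter and 0 with shallow libraries only, and 2 to 6 without each library in turn. The 4 in the cervical spinal cord became 1 with library totals or thinning, 2 with at least 10 counts in every library, without a filter or with shallow libraries only, 0 with deep libraries only, where edgeR called 0 genes of any kind, and 1 to 4 without each library. The 0 of the 5-week medulla was 1 with library totals, no filter or DESeq2, 2 with at least 10 counts in every library, and 0 to 1 without each library. The 1 of the 5-week cervical spinal cord was 0 with library totals, with a filter of 10 counts in every library, bias-adjusted quasi-likelihood, DESeq2 or all ages in one fit, and 0 to 2 without each library. The tissue difference of the change gave 0 to 1 without each mouse. The WT tissue comparison gave 0 in place of 1 with library totals, a filter of 10 counts in every library or bias-adjusted quasi-likelihood, and 0 to 1 without each mouse. The SCA7 tissue comparison gave 1 in place of 2 with library totals, 0 with at least 10 counts in every library or bias-adjusted quasi-likelihood, 5 with deep libraries only, which came from 2 mice, and 0 to 6 without each mouse. The WT medulla from P8 to 5 weeks gave 5 in place of 2 with deep libraries only.

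Correlations of same-numbered WT and SCA7 libraries ran from −0.83 to 0.94. For the 2 tissues of the same WT mouse they ran from −0.75 to 0.92, with 2 of 5 best with their own mouse. These correlations therefore cannot show whether replicate numbers pair WT with SCA7 mice. With the replicate block the counts were 3 in the 9-week medulla and 2 in the 5-week medulla. With no replicate block, which here is the mouse, the SCA7 tissue comparison gave 0, Slc4a4 in the WT tissue comparison went to 0.0023 and Atp1b1 in the SCA7 tissue comparison to −0.053.

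Directions that turned were those of differences near 0 or not called, except where a p is given. With library totals they were 0.34 for Aqp4 and the tissue difference of the change, −0.11 for Kcnj10 and −0.075 for Atp1b2 in the WT tissue comparison, −0.10 for Kcnj10 in WT from 5 to 9 weeks, 0.30 for Kcnj10 in the cervical spinal cord between ages, and −0.16 for Fxyd1 and −0.21 for Atp1b1 in the 5-week cervical spinal cord. With deep libraries only they were −0.073 for Kcnj10, −0.025 for Atp1b1 and −0.22 for Atp1b2 in the tissue difference of the change, 0.12 for Slc4a4 in WT from 5 to 9 weeks, −0.31 for Atp1b1 in the SCA7 tissue comparison (edgeR adjusted p = 0.0452), and ratio differences in the medulla of −0.51 for Kcnj10 over Kcnj16, −0.055 for Slc4a4 over astrocyte markers and 0.081 for Atp1b1 over neuronal markers, and of 0.16 for Aqp4 over astrocyte markers in the cervical spinal cord. The deep libraries of the SCA7 tissue comparison came from 2 mice, replicates 4 and 5, so its p rests on these alone. With shallow libraries only Atp1b1 in the 9-week cervical spinal cord was −0.02 and Kcnj16 over astrocyte markers −0.051. Atp1b1 in the 5-week medulla was 0.10 with DESeq2 or its size factors and 0.0077 with all ages in one fit. Atp1b1 in the 5-week cervical spinal cord was −3.00e-04 with at least 10 counts in every library, −0.0067 without a filter and −0.053 with all ages. Kcnj10 in WT from 5 to 9 weeks was −0.021 with at least 10 counts in every library and −0.0093 with bias-adjusted quasi-likelihood, under which Fxyd1 in the SCA7 tissue comparison was −0.057. Kcnj10 over Kcnj16 in the medulla was −0.054 with a pseudocount of 1. Without the libraries that stand apart, Atp1b1 over neuronal markers in the medulla was 0.089, and in the cervical spinal cord Kcnj16 and Atp1b2 over astrocyte markers were −0.11 and −0.026.

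Without each library in turn the ranges that crossed 0 were −0.038 to 0.24 for Atp1b1 in the 9-week cervical spinal cord, −0.15 to 0.13 in the 5-week medulla, −0.11 to 0.016 in the 5-week cervical spinal cord, −0.019 to 0.34 at P8 and −0.28 to 0.22 in the SCA7 tissue comparison. They were −0.30 to 0.42 for Fxyd1 in the 5-week cervical spinal cord, −0.95 to 0.0088 at P8 and −0.10 to 0.23 in the SCA7 tissue comparison, −0.28 to 0.13 for Aqp4 in the tissue difference of the change, and −0.18 to 0.11 for Slc4a4 and −0.37 to 0.092 for Kcnj16 in the WT tissue comparison. Ratios crossed at −0.45 to 0.48 for Kcnj10 over Kcnj16, −0.047 to 0.28 for Slc4a4 over astrocyte markers and −0.46 to 0.089 for Atp1b1 over neuronal markers in the medulla, and at −0.026 to 0.28 for Atp1b2 and −0.11 to 0.42 for Kcnj16 over astrocyte markers in the cervical spinal cord. The WT tissue comparison with deep libraries only was not run, since no residual degrees of freedom were left with the mouse block. Shallow libraries limit Kcnj16 and Fxyd1 most.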
